A study of Mus musculus with 6 samples.

Results

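A set of 9 genes for cell surface proteins that mark blood stem and progenitor cells were followed across 3 groups of mouse marrow cells: Cd34, Adgrg1, Cd93, Prom1, Slamf1, Cd48, Procr, Esam and Eng. They were taken by name, through the gene symbol that the platform annotation gives each probe set. The choice was made with earlier results of these data known, so the counts set beside all genes are not independent of the data. All 9 of these genes were measured, by 17 of the 34945 probe sets that name a single gene, and they are 9 of 18193 genes in all. Where a gene had several probe sets, the one with the highest mean over the 6 arrays stands for it.

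Each of the 3 groups had 2 arrays of the Affymetrix Mouse430_2 type. The MN1 group held GFP-positive marrow cells carrying the gammaretroviral vector pSF91-MN1-IRES-GFP. MN1 is a transcriptional cofactor whose overexpression gives myeloid leukaemia in mice. The MN1VP16 group held GFP-positive marrow cells carrying pSF91-MN1VP16-IRES-GFP, which per its name joins MN1 to VP16, a herpesvirus activator; the labels say no more of the construct. The deposited protocol reads alike for all 6 samples: marrow of C57BL/6J donors treated for 4 days with 5-fluorouracil at 150 mg/kg was kept for 48 hours with human IL-6, mouse IL-3 and mouse SCF. It was then transduced and transplanted into lethally irradiated syngeneic mice, with sorting 4 weeks after that. The strain tag is C57BL6 for every sample. Gr1Mac cells were sorted from marrow by Gr1 and CD11b, which granulocytes and monocytes carry. They share that protocol text, but no vector is named for them, and the labels do not say whether they came from recipients of transduced marrow. No group with an empty vector was analysed here, so in a difference from Gr1Mac the sort and the construct cannot be told apart.

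Blood stem and progenitor cells are recognised by combinations of surface proteins, since no single one marks them all. CD34 is a sialomucin, a heavily glycosylated adhesion protein of progenitors, mast cells and endothelium, and mouse long-term stem cells carry little of it. ADGRG1, formerly GPR56, is an adhesion G protein-coupled receptor of stem cells and of some cytotoxic lymphocytes. CD93 is a C-type lectin-like glycoprotein found on early progenitors, immature B cells, monocytes and endothelium, and prominin 1 (CD133, the Prom1 product) is a pentaspan membrane protein of cell protrusions. SLAMF1 (CD150) and CD48 belong to the SLAM family of immune receptors; mouse stem cells are sorted as CD150-positive and CD48-negative, and most mature leukocytes carry CD48. The endothelial protein C receptor (Procr), the junctional adhesion protein ESAM and endoglin (Eng), a co-receptor for TGF-beta and BMP ligands, are shared by stem cells and endothelium.

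The values are log2 expression levels from RMA, a method that corrects background, equalises the arrays and summarises the probes of each set. The arrays' medians over all features lay between 5.36 and 5.43. Arrays of 1 group correlated at 0.981 to 0.990 and arrays of different groups at 0.890 to 0.972 over all probe sets. The single Mn1 probe set read between 3.63 and 4.92 on all arrays and so does not check the labels, whose insert is not described. Gr1Mac arrays read Itgam, the CD11b gene, at 10.95 and 10.92, against 7.67 and 6.95 in MN1 and 9.44 and 8.88 in MN1VP16. All 18 measured granulocyte and monocyte markers read above 5.84 on every array, those of the GFP-sorted groups included; Ly6g, which encodes the Gr1 epitope, had no single-gene probe set here. Xist was high (10.44 to 12.59) on the MN1 arrays and on Gr1Mac array 1, whereas the Y-linked gene Kdm5d was high (7.24 to 7.55) on the MN1VP16 arrays and Gr1Mac array 2, so sex and construct cannot be told apart between MN1VP16 and MN1. Eif2s3y, also Y-linked, was less even, at 10.40 and 7.43 on the MN1VP16 arrays and 10.51 on Gr1Mac array 2. The 12 spiked Bacillus control features averaged 10.03 to 10.25 on both MN1 arrays and MN1VP16 array 1, and 8.90 to 9.27 on the other 3 arrays.

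The highest reading of Xist on arrays high in Y-linked genes, 5.84 log2 units, served as a guide to background, chosen after the values were seen. Background differs between probe sets, so a reading under it may still be signal. For a called gene whose dimmer group averaged no more than that guide, each reading of that group under the guide was raised to it, and the fold against the mean of the readings so raised is printed with the words at least. Of the 17 probe sets, 7 stayed at or under the guide on all 6 arrays. A gene is called when its adjusted p is under 0.05, from limma's moderated test over all 18193 genes with Benjamini-Hochberg adjustment. The labels do not say whether a group's arrays are separate mice. The Gr1Mac arrays had opposite sex patterns and so are not repeats of the same sample. The p-values reflect only array-to-array spread, which within MN1 and MN1VP16 may be technical in part or in whole. With 2 arrays against 2 an exact permutation test cannot fall below 0.333, and non-overlapping arrays are common: 66.8% of all genes did not overlap between MN1 and Gr1Mac, 50.1% between MN1VP16 and Gr1Mac and 59.7% between MN1VP16 and MN1. An unadjusted p under 0.05 was common too: in MN1 against Gr1Mac 22.1% of all genes passed it as higher and 17.7% as lower, in MN1VP16 against Gr1Mac 13.4% and 10.3%, and in MN1VP16 against MN1 9.15% and 13.3%.

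**Figure D1:**
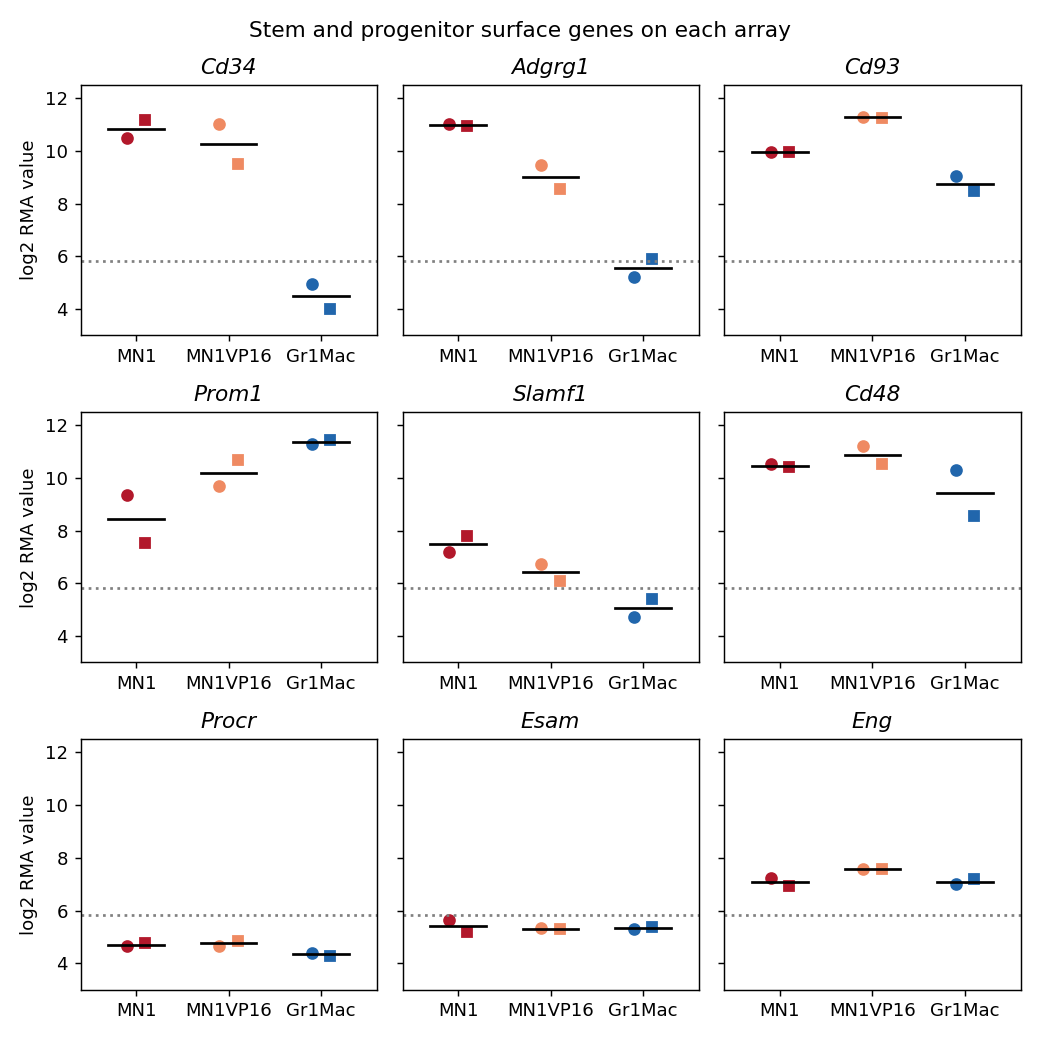
The log2 RMA value (y axis) of each of the 9 genes on each array, by group on the x axis; circles are replicate 1, squares replicate 2, the black bar is the group mean and the dotted line the background guide at 5.84. Cd34, Adgrg1 and Slamf1 are highest in MN1, Prom1 is highest in Gr1Mac, Cd93 is highest in MN1VP16, and Procr and Esam lie under the dotted line on every array.

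RefSeq promoter entries on GRCm38.p6 were matched for 7 of the 9 genes, with 9 entries in all since Adgrg1 and Prom1 have more than 1 annotated start. The 250 bases before the start are given for Cd34, Adgrg1 and Slamf1, which were called higher in MN1 than in Gr1Mac, and for Prom1, which was called lower, so that the sequences of the genes that parted can be set side by side. For Adgrg1 and Prom1 the entry listed first is shown. All sequences run 5′ to 3′ on the gene's own strand, and capitals mark every exact match, on either strand, to 5 short motifs: AGATAA (for GATA factors), AGGAAG (ETS factors), TGTGGT (RUNX factors), TGACAG (MEIS factors) and CACCTG (an E-box). The windows are chr1:194938571-194938820 on the plus strand for Cd34, chr8:94976859-94977108 on the plus strand for Adgrg1, chr1:171766882-171767131 on the plus strand for Slamf1 and chr5:44101737-44101986 on the minus strand for Prom1.
Cd34: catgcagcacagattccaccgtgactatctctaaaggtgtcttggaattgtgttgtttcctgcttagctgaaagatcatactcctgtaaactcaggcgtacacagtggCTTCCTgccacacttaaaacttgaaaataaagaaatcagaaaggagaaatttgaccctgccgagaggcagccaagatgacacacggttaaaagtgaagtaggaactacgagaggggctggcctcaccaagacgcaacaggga
Adgrg1: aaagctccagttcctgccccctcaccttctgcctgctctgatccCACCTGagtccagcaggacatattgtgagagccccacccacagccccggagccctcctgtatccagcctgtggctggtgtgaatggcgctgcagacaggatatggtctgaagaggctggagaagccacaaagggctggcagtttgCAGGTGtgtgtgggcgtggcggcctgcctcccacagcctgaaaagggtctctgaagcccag
Slamf1: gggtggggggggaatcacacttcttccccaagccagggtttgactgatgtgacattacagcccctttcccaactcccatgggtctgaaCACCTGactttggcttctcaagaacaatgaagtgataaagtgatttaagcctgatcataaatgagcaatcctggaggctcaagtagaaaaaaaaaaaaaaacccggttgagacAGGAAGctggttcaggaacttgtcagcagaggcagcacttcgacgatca
Prom1: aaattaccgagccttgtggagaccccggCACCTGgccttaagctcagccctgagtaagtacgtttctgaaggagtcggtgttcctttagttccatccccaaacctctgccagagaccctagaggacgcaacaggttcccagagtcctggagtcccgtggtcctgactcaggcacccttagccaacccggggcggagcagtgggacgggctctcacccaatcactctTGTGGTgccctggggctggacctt

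Cd34 held 1 ETS match, read on the opposite strand 142 to 137 bases before the start. Adgrg1 held the E-box letters at 206 to 201 bases and, on the opposite strand, at 61 to 56 bases before the start. Slamf1 held an E-box at 162 to 157 bases and an ETS match at 49 to 44 bases. Prom1 held an E-box at 222 to 217 bases and a RUNX match at 24 to 19 bases before the start. No match overlapped another. The other Prom1 entry, not shown, held 4 ETS matches, and the other Adgrg1 entry held 0 matches to any of the motifs. The E-box letters and the ETS letters were thus both in genes called in both directions. Over all 9 entries the E-box was found in 3, the ETS letters in 4 and the RUNX letters in 2, while the GATA and MEIS letters were found in 0. Among all 32851 promoter windows of this length, 17.2% held the E-box, 29.5% the ETS letters, 14.0% the RUNX letters, 10.0% the GATA letters and 15.9% the MEIS letters. These are matches of letters only.

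The first comparison asked how the surface genes differed between MN1 cells and Gr1-positive, CD11b-positive cells. Cd34, Adgrg1, Slamf1 and Cd93 were higher in MN1, by at least 31.8-fold, at least 35.0-fold, at least 3.18-fold and 2.29-fold. Prom1 was 7.57-fold lower. Cd48, Procr, Esam and Eng were not called. In all, 4 of 9 genes were called higher, where 17.3% of all genes were, and 1 of 9 was called lower, where 12.0% were. The median difference of the 9 genes was 1.04 log2 units and that of all genes -0.06. With the split of the spiked features as a block, Cd34 and Adgrg1 alone of the 9 were called, and 1486 of all genes in place of 5334. Both MN1 arrays lay on the high side of that split and both Gr1Mac arrays on the low side. The size of the block was thus set by the MN1VP16 arrays alone, and split and group cannot be told apart here. Centring each array on a median of its own moved the median of all genes to -0.32. Their split went from 3147 higher and 2187 lower to 2484 and 4003, and 5 of the 9 were called then too. The medians used were not those over all features given above, which are too close to move Cd34 from 6.35 to 6.09 log2 units. In bulk samples such as these, a change in the number of cells that express a gene cannot be told apart from a change in its RNA per cell.

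The second comparison set MN1VP16 cells against the same Gr1Mac arrays, so the first and the second share their controls. Cd34 was at least 21.3-fold, Adgrg1 at least 8.85-fold and Cd93 5.70-fold higher in MN1VP16. These were 3 of 9 genes called higher against 3.66% of all genes, and 0 of 9 were called lower against 2.11%. At an unadjusted p under 0.05, 7 of the 9 genes passed in limma as higher, Procr with all its readings under the guide among them, where 13.4% of all genes did. Without Gr1Mac array 2 only Cd93 of the 9 was called, in a fit that called 49 of all 18193 genes in place of 1050, and without Gr1Mac array 1 Cd48 joined the 3, in a fit that called 1243. The median difference was 1.35 log2 units over the 9 genes and 0.00 over all genes. With each array centred in the same way as before, the median was -0.21 over all genes. Their split went from 666 higher and 384 lower to 530 and 946, and 3 of the 9 were called.

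The third comparison asked how MN1VP16 cells differed from MN1 cells. Adgrg1 was 3.95-fold lower in MN1VP16 and Cd93 2.48-fold higher. These were 1 of 9 genes called lower, against 2.70% of all genes, and 1 of 9 called higher, against 1.15%. The 9 genes had a median difference of 0.05 and all genes one of 0.03 log2 units. Repeating the quantile normalization changed the split of all genes from 209 higher and 492 lower to 352 and 514, and 2 of the 9 were called. Both calls were narrow. Without MN1 array 1, MN1 array 2 or MN1VP16 array 2 limma called 0 of the 9 genes (5, 2 and 2 at an unadjusted p under 0.05), in fits that called 476, 26 and 203 of all 18193 genes, against 701 with every array. Without any other array 1 of the 9 was called. With the sex pattern as a block limma called 0 of all 18193 genes, so that its 0 of 9 (4 at an unadjusted p under 0.05) does not set these genes apart. A block for the control feature split gave the same fit as leaving out MN1VP16 array 2.

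**Figure D2:**
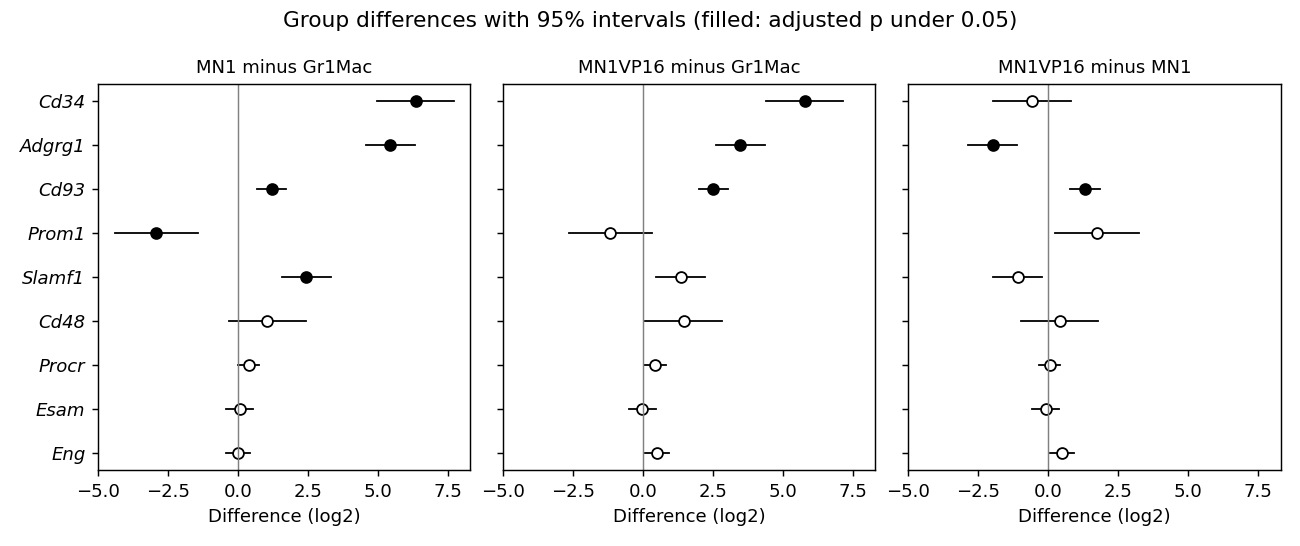
The difference of each gene between groups (x axis, log2) in the 3 comparisons, with limma's 95% interval as a line; filled points are called at an adjusted p under 0.05. Cd34 and Adgrg1 lie farthest to the right in both comparisons with Gr1Mac, Prom1 lies to the left of 0 in both, and Adgrg1 and Cd93 lie on opposite sides of 0 between MN1VP16 and MN1.

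Cd34, the sialomucin, read 10.50 and 11.15 on the MN1 arrays, 10.9996 and 9.50 on the MN1VP16 arrays, and 4.96 and 4.00 on the Gr1Mac arrays. Both vector groups lay far above Gr1Mac, where both readings were under the background guide, and the vector groups overlapped each other. The difference was 6.35 ± 0.56 log2 units (SE) between MN1 and Gr1Mac (limma adjusted p = 0.00155) and 5.77 ± 0.56 between MN1VP16 and Gr1Mac (adjusted p = 0.0129). Between MN1VP16 and MN1 it was -0.58 with a 95% interval from -1.96 to 0.80 (adjusted p = 0.622), which leaves room for a fold in either direction. Without Gr1Mac array 2 the call for MN1VP16 against Gr1Mac was lost (limma adjusted p = 0.0665; range over 18 alternatives 0.00632 to 0.0665). Raising single readings to a lower guide of 4.05, taken from Y-linked genes on Xist-high arrays, gave 80.3-fold for MN1 and 53.7-fold for MN1VP16. The difference of MN1VP16 from Gr1Mac was 5.02 without MN1VP16 array 1 and 6.52 without MN1VP16 array 2, and was called both times (adjusted p = 0.0224 and 0.0110).

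Adgrg1, the adhesion receptor, read 11.02 and 10.95 in MN1 cells, 9.46 and 8.55 in MN1VP16 cells and 5.20 and 5.88 in Gr1Mac cells. The 3 groups did not overlap, with MN1 at the top, MN1VP16 between and Gr1Mac at the bottom. MN1 exceeded Gr1Mac by 5.45 ± 0.36 log2 units (limma adjusted p = 0.00107), and MN1VP16 exceeded Gr1Mac by 3.46 ± 0.36 (adjusted p = 0.0140). MN1VP16 lay below MN1 by 1.98 log2 units, with an interval from -2.86 to -1.10 (adjusted p = 0.0457). The other Adgrg1 probe set, whose ID does not end in _x_at, the suffix of probe sets open to cross-hybridisation, read 10.41 and 10.49, then 8.61 and 8.17, then 4.82 and 4.68 in the same order of groups. It gave -2.06 ± 0.20 between MN1VP16 and MN1 (adjusted p = 0.0141 over all single-gene probe sets). The call between MN1VP16 and MN1 was lost in the gene-level fit without either MN1 array, MN1VP16 array 2 or either Gr1Mac array, with limma adjusted p-values of 0.0638 to 0.247 among these (range over all 17 alternatives 0.0158 to 0.271). Between MN1VP16 and MN1 the fits without either Gr1Mac array are the same fit. The call for MN1VP16 against Gr1Mac was lost without Gr1Mac array 2, where the difference was 3.80 log2 units.

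The means of mast cell and of red cell precursor markers were, as the levels of Cd34 and Adgrg1, lowest in Gr1Mac. The mean of 11 mast cell and basophil markers was 8.43 and 9.002 in MN1 cells, 8.03 and 7.26 in MN1VP16 cells and 6.01 and 5.82 in Gr1Mac cells, and between 3 and 8 of them read above the guide on an array. Cpa3, the mast cell carboxypeptidase, read 12.93 and 13.24 in MN1 cells, 12.48 and 12.34 in MN1VP16 cells and 5.59 and 4.08 in Gr1Mac cells. The mean of 10 erythroid markers was 9.72 and 10.54 in MN1 cells, 8.21 and 7.67 in MN1VP16 cells and 6.64 and 6.51 in Gr1Mac cells, and between 5 and 9 of these read above the guide. Mast cell markers were called higher in 5 of 11 in MN1 and in 2 of 11 in MN1VP16, both against Gr1Mac, and erythroid markers in 8 of 10 and 5 of 10. The other mast cell markers were not called; the tryptase genes Tpsab1 and Tpsb2 read 4.74 to 5.43 on all arrays, under the guide, and Hdc, the histidine decarboxylase gene, read 11.66 and 11.79 in MN1 and 11.88 and 12.55 in Gr1Mac. Alas2, the haem synthesis enzyme gene of red cells, was not called either, at 9.11 and 10.39 in MN1 and 10.98 and 9.72 in Gr1Mac. Between MN1VP16 and MN1, where Adgrg1 was called lower and Cd34 was not called, 6 of 10 erythroid markers and 1 of 11 mast cell markers were called lower. The part of these cells in the levels of Cd34 and Adgrg1 was not tested.

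Prom1, the prominin gene, ran the other way. It read 9.34 and 7.55 in MN1 cells, 9.69 and 10.69 in MN1VP16 cells and 11.28 and 11.45 in Gr1Mac cells, by its only single-gene probe set. The groups did not overlap and Gr1Mac was highest, with a wide gap between the MN1 arrays. The difference of MN1 from Gr1Mac was -2.92 ± 0.61 log2 units (limma adjusted p = 0.0159). MN1VP16 differed from Gr1Mac by -1.17, with an interval from -2.67 to 0.32 (adjusted p = 0.320), and from MN1 by 1.75, with an interval from 0.26 to 3.24 (adjusted p = 0.165). The call against Gr1Mac was lost without Gr1Mac array 1 (adjusted p = 0.0722), without Gr1Mac array 2 (0.0895), with the sex pattern as a block (0.0895) and with the control features as a block, where the difference was -1.92 (0.313); over 17 alternatives the adjusted p ranged from 0.00789 to 0.313. The direction was negative in all 17. Among these, the sex pattern block and the fit without Gr1Mac array 2 are the same fit, since only Gr1Mac holds both sex patterns. The size rested on the MN1 arrays, at -3.82 without MN1 array 1 and -2.02 without MN1 array 2, both called (adjusted p = 0.00789 and 0.0459).

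Prom1, a stem and progenitor marker by its place in this set, was thus highest in the cells sorted by Gr1 and CD11b. The mean of the 18 granulocyte and monocyte markers had the same order, at 11.85 and 10.90 in MN1 cells, 12.58 and 12.85 in MN1VP16 cells and 13.10 and 12.88 in Gr1Mac cells. Single markers did not all follow it. Elane, Prtn3, Ms4a3, Cd14, Mpo and S100a8 had their highest group mean in MN1VP16. Elane, for one, averaged 9.77 in MN1, 12.10 in MN1VP16 and 11.25 in Gr1Mac. MN1 array 2, with the lowest Prom1, also had the lowest mean of these markers. Of the 18, limma called 0 higher (0 also at an unadjusted p under 0.05) and 9 lower in MN1 against Gr1Mac. Whether Prom1 RNA came from such cells was not tested.

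**Figure D3:**
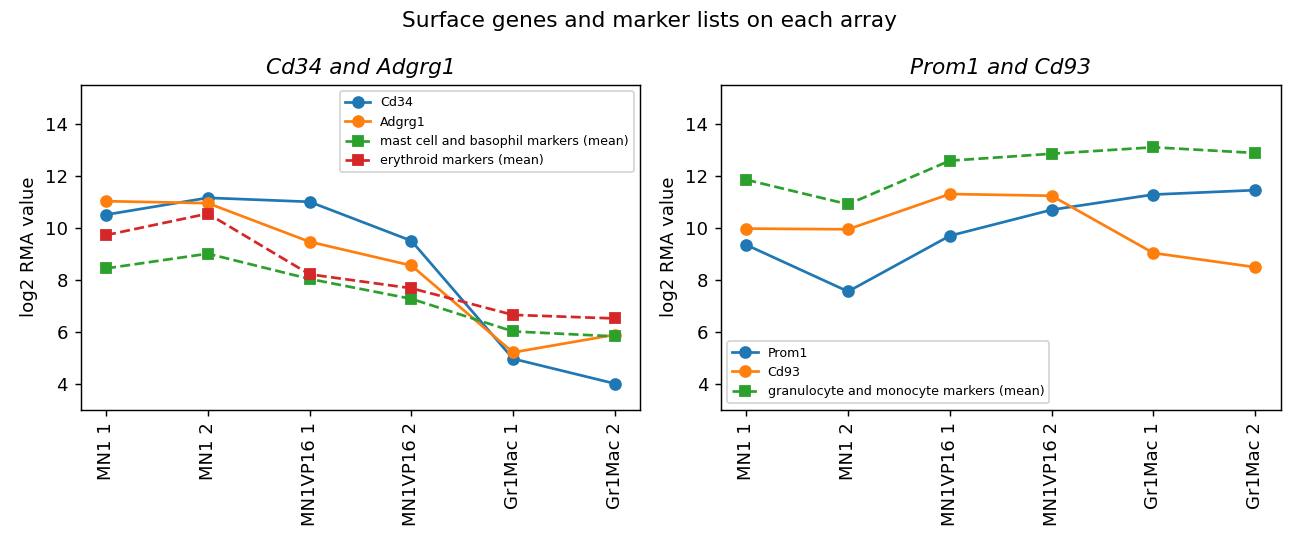
The log2 RMA value (y axis) on each array (x axis) of Cd34 and Adgrg1 beside the means of mast cell and erythroid marker lists (left), and of Prom1 and Cd93 beside the mean of granulocyte and monocyte markers (right); lines only join the points of one gene or list. The marker means on the left lie lowest on the Gr1Mac arrays, as Cd34 and Adgrg1 do, and on the right MN1 array 2 is lowest for both Prom1 (7.55) and the granulocyte and monocyte mean (10.90).

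Cd93, the lectin-like glycoprotein, read 9.97 and 9.94 in MN1 cells, 11.30 and 11.23 in MN1VP16 cells and 9.03 and 8.48 in Gr1Mac cells. All 3 groups were well above the guide, none overlapped, and MN1VP16 was the highest. MN1 exceeded Gr1Mac by 1.198 ± 0.21 log2 units (limma adjusted p = 0.00932), and MN1VP16 exceeded Gr1Mac by 2.51 ± 0.21 (adjusted p = 0.0113). MN1VP16 exceeded MN1 by 1.31 ± 0.21, a fold of 2.48 with an interval from 1.73 to 3.57 (adjusted p = 0.0370). Without either MN1 array the call for MN1 against Gr1Mac was lost (adjusted p = 0.0534 and 0.0612; 0.00465 to 0.214 over 18 alternatives). Without any one of the MN1 or MN1VP16 arrays the call between MN1VP16 and MN1 was lost (adjusted p = 0.0967 to 0.237; 0.0218 to 0.237 over 18 alternatives).

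Cd93 has 5 single-gene probe sets. A second bright one read 9.35 and 9.27 in MN1 cells, 10.74 and 10.64 in MN1VP16 cells and 8.88 and 8.23 in Gr1Mac cells. It followed the same order, with 1.38 ± 0.24 between MN1VP16 and MN1 (adjusted p = 0.0408 over all probe sets), but with 0.75 ± 0.24 between MN1 and Gr1Mac it was not called there (adjusted p = 0.0627). The other 3 stayed under the guide, between 4.39 and 5.71, and were not called. The mean over all 5, which those dim sets pull down, put MN1 above Gr1Mac by 0.32 log2 units (adjusted p = 0.214).

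Some genes of monocytes lay with Cd93 in the step from MN1 to MN1VP16, but were highest in Gr1Mac, where Cd93 was lowest. The monocyte marker Cd14 was highest in MN1VP16, with group means of 7.72 in MN1, 10.57 in MN1VP16 and 9.58 in Gr1Mac. It was not called between MN1VP16 and MN1. Readings of Csf1r, the M-CSF receptor gene, were 9.98 and 9.67 in MN1 cells, 12.88 and 12.34 in MN1VP16 cells and 13.18 and 12.60 in Gr1Mac cells. Among the 18 granulocyte and monocyte markers, Csf1r, the chemokine receptor Ccr2 and Itgam were called higher in MN1VP16 than in MN1, by 6.88-fold, 5.24-fold and 3.61-fold, and 0 were called lower (0 also at an unadjusted p under 0.05 in limma). All 3 calls were lost without MN1 array 2, that of Ccr2 also without MN1VP16 array 2, and that of Itgam without any array but MN1 array 1. Of 16 lymphoid markers, Cd79a, a chain of the B cell receptor, was the one called, at least 1.67-fold higher; without 5 of the 6 arrays in turn that call was lost. The part of such cells in the Cd93 level was not tested.

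Slamf1, which encodes CD150, read 7.19 and 7.82 in MN1 cells, 6.74 and 6.09 in MN1VP16 cells and 4.72 and 5.42 in Gr1Mac cells. The groups did not overlap and ran from MN1 down to Gr1Mac, where both readings were under the guide. The difference of MN1 from Gr1Mac was 2.43 ± 0.36 log2 units (limma adjusted p = 0.00512), and with the control features as a block it was 1.79 and no longer called (adjusted p = 0.124; 0.00282 to 0.124 over 18 alternatives). MN1VP16 differed from Gr1Mac by 1.35, with an interval from 0.47 to 2.22 (adjusted p = 0.0861), and from MN1 by -1.09, with an interval from -1.96 to -0.21 (adjusted p = 0.147). Its other 2 probe sets stayed under the guide, at 3.61 to 5.51, and gave 0.56 and 1.02 for MN1 against Gr1Mac (adjusted p = 0.110 and 0.0547 over all probe sets).

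Cd48, the SLAM family member that stem cells lack, read 10.52 and 10.41 in MN1 cells, 11.22 and 10.53 in MN1VP16 cells and 10.30 and 8.55 in Gr1Mac cells. It was bright on every array, and the Gr1Mac arrays had an SD of 1.24 log2 units. The difference from Gr1Mac was 1.04 in MN1, with an interval from -0.34 to 2.41 (limma adjusted p = 0.233), and 1.45 in MN1VP16, with an interval from 0.07 to 2.83 (adjusted p = 0.191). Each Gr1Mac array moved these values: without Gr1Mac array 2 they were 0.16 and 0.57 and not called (adjusted p = 0.777 and 0.375), and without Gr1Mac array 1 both were called, at 1.91 (adjusted p = 0.0210; 0.0210 to 0.896 over 18 alternatives) and 2.33 (adjusted p = 0.0363; 0.0363 to 0.485). MN1VP16 and MN1 differed by 0.41, with an interval from -0.96 to 1.79 (adjusted p = 0.737). The surface phenotype by which mouse stem cells are sorted, CD150 with no CD48, is a property of single cells and was not measured by these arrays.

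In the mouse genome Slamf1 and Cd48 lie in a row of SLAM family genes, and the measured members of that row were not called in one direction. In chromosomal order by the RefSeq table, these are Cd244a, Ly9, Slamf7, Cd48, Slamf1, Cd84 and Slamf6. Cd244a, the CD48 receptor gene, read 5.45 and 5.35 in MN1 cells, 8.13 and 6.61 in MN1VP16 cells and 6.97 and 8.39 in Gr1Mac cells, and was at least 3.59-fold lower in MN1 than in Gr1Mac (limma adjusted p = 0.0376). Cd84, a self-ligand SLAM receptor beside Slamf1, read 9.99 and 9.08 in MN1 and 11.80 and 11.74 in Gr1Mac, and fell by 2.23 log2 units in MN1 (adjusted p = 0.0166). Thus within this row Slamf1 rose in MN1, while Cd84 on one side of it and Cd244a farther off on the other fell, and Cd48, next to it, was not called. Ly9, Slamf7 and Slamf6 were not called, with differences of -0.75, -0.27 and -0.41. In MN1VP16 against Gr1Mac, limma called 0 of the 7 genes (3 at an unadjusted p under 0.05). The Cd84 call was lost without MN1 array 2 or either Gr1Mac array, and that of Cd244a without either MN1 array or Gr1Mac array 2.

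**Figure D4:**
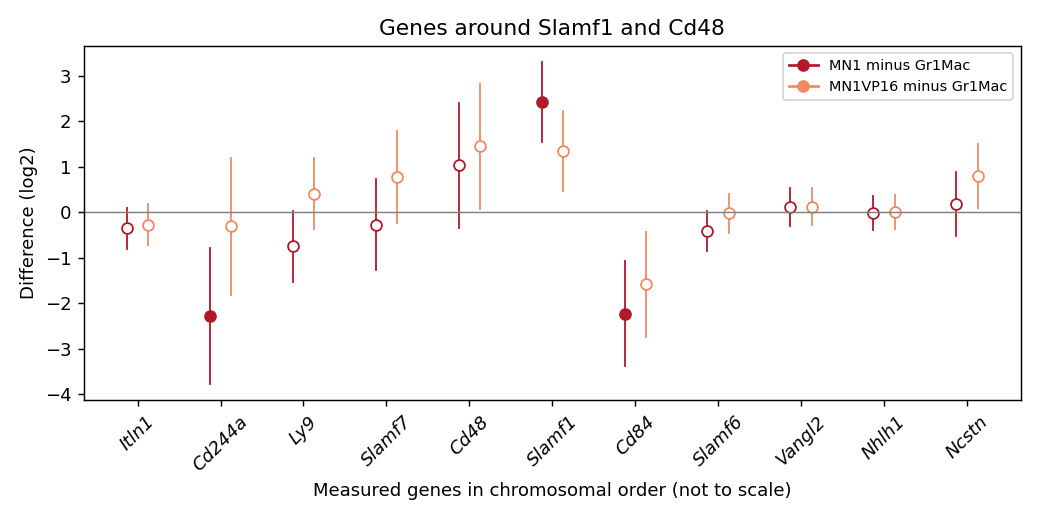
Differences from Gr1Mac (y axis, log2, with 95% intervals) in MN1 and MN1VP16 for the measured genes around Slamf1 and Cd48, in chromosomal order along the x axis; filled points are called. Slamf1 is above 0 and Cd244a and Cd84 are below 0 in MN1, with filled points, and the genes outside the SLAM row, none of them called, lie between -0.35 and 0.80.

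Procr, the protein C receptor, read 4.66 and 4.76 in MN1 cells, 4.67 and 4.84 in MN1VP16 cells and 4.40 and 4.28 in Gr1Mac cells. All 6 readings were under the guide and spanned 0.57 log2 units. The differences from Gr1Mac were 0.37, with an interval from -0.01 to 0.76, in MN1 and 0.42, from 0.03 to 0.81, in MN1VP16 (limma adjusted p = 0.136 and 0.179), and MN1VP16 differed from MN1 by 0.05, from -0.34 to 0.43.

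Esam, the junctional adhesion gene, read 5.63 and 5.18 in MN1 cells, 5.34 and 5.29 in MN1VP16 cells and 5.30 and 5.38 in Gr1Mac cells. The groups overlapped in every comparison and every reading was under the guide. The largest difference in size was -0.09 log2 units, between MN1VP16 and MN1. The intervals reached from -0.57 to 0.54 (limma adjusted p = 0.843 to 0.961). At such levels neither Procr nor Esam can be said to be expressed or not.

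Eng, the TGF-beta co-receptor gene, read 7.24 and 6.94 in MN1 cells, 7.56 and 7.60 in MN1VP16 cells and 6.996 and 7.19 in Gr1Mac cells. MN1 and Gr1Mac overlapped, and MN1VP16 lay just above both. MN1VP16 differed by 0.49 ± 0.18 log2 units (SE) both from Gr1Mac and from MN1, with intervals from 0.06 to 0.92 (limma adjusted p = 0.166 and 0.174). MN1 and Gr1Mac differed by 0.00, with an interval from -0.43 to 0.43. The second Eng probe set, at 5.16 to 5.91, was not called either.

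Over all single-gene probe sets fitted together, 6 of the 17 probe sets of the 9 genes were called in MN1 against Gr1Mac (26.5% of all probe sets), 5 in MN1VP16 against Gr1Mac (5.44%) and 4 in MN1VP16 against MN1 (3.26%). The 4 were those of Adgrg1, both lower, and the bright pair of Cd93, both higher. No gene had probe sets called in opposite directions.

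**Figure D5:**
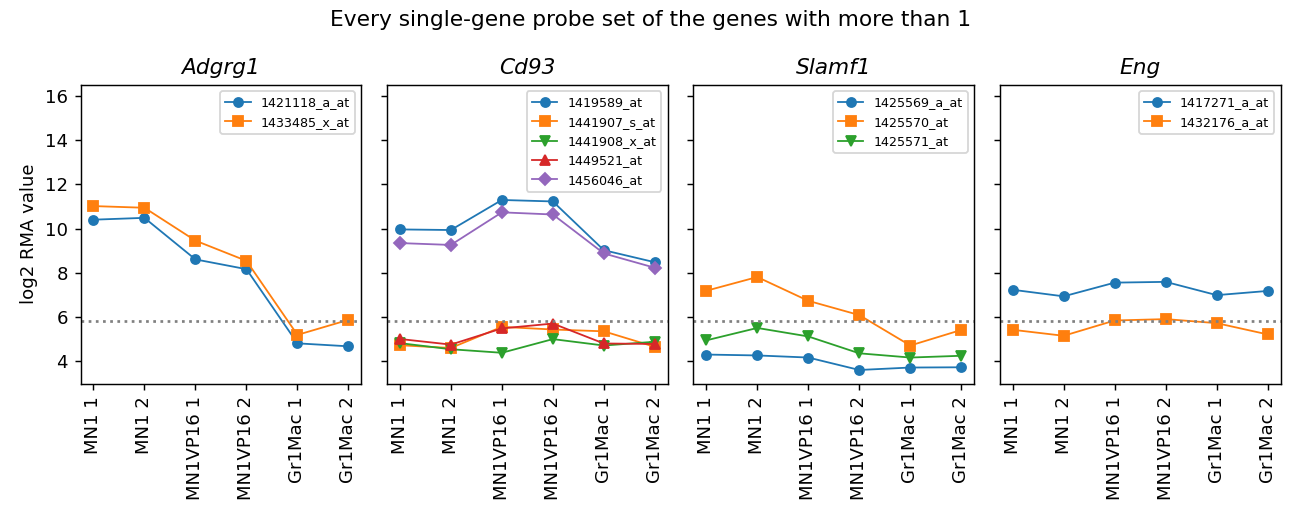
The log2 RMA value (y axis) of every single-gene probe set on each array (x axis) for the 4 genes with more than 1 probe set; the dotted line is the guide at 5.84 and lines join the readings of a probe set. Both Adgrg1 probe sets and the bright pair of Cd93 keep one order of the groups, while 3 Cd93 and 2 Slamf1 probe sets stay under the dotted line.

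The profiles most like each gene were found by the root mean square distance between centred log2 values over the 6 arrays. For Cd34 these were Gata2, a stem cell transcription factor, at a distance of 0.44 log2 units, and Armcx2 at 0.56. For Adgrg1 they were the long non-coding RNA Snhg4 at 0.43 and Ctla2a, a cysteine protease inhibitor, at 0.46. For Prom1 they were the transporter gene Abca13 at 0.22 and Ffar2, the short-chain fatty acid receptor of neutrophils, at 0.23; Ffar2 read 9.17 and 7.49 in MN1 and 11.75 and 11.54 in Gr1Mac. For Cd93 they were Bcl2, an inhibitor of apoptosis, at 0.31 and Otos at 0.36. For Slamf1 they were Mettl27 at 0.17 and Mthfd2l at 0.19, and for Cd48 Bri3bp at 0.20 and Itm2c at 0.21. Procr, Esam and Eng spanned at most 0.65 log2 units, so that a close profile is a flat one; theirs were Ncaph2 and Zhx1, Adamts18 and Rps6kl1, and Ncam2 and Cnot6l, at 0.03 to 0.07. With 6 arrays in 3 groups, many genes share such a course.

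The lists that follow are set against the shares and medians of all genes given for each comparison. They rest on few arrays: of the 83 calls of list and marker genes in MN1 against Gr1Mac 46 were kept whichever array was left out, of 25 in MN1VP16 against Gr1Mac 3 were kept (Il7r, Cpa3 and Cd3d), and of 22 in MN1VP16 against MN1 1 was kept (Hlf).

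Other surface genes of stem and progenitor cells went both ways. Of 27 measured, limma called 8 higher and 9 lower in MN1 against Gr1Mac, with a median difference of 0.20. The cytokine receptors Flt3, whose call was lost without either Gr1Mac array, and Il7r were 16.4-fold and at least 6.68-fold higher, the integrin Itga2b was 8.49-fold higher (lost without any MN1 or Gr1Mac array), and Alcam, an adhesion protein, was at least 5.45-fold lower. In MN1VP16 against Gr1Mac, Il7r (at least 4.38-fold) and the TNF receptor family member Cd27 (at least 1.73-fold) were higher and Alcam (5.27-fold) and P-selectin, Selp (2.52-fold), lower, and the other 23 were not called. Between MN1VP16 and MN1 limma called 0 of 27 higher (7 at an unadjusted p under 0.05) and 1 lower, Kit, which binds stem cell factor: it read 9.68 and 9.81 in MN1VP16 and 11.12 and 11.24 in MN1, 2.70-fold lower (adjusted p = 0.0408; lost without any array of those groups). Ly6a, the Sca-1 gene, was not analysed here.

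The relatives and partners of CD34, CD93 and ADGRG1 were mostly not called in the comparisons of MN1VP16. Of 18 measured, 2 were higher and 5 lower in MN1 against Gr1Mac, where 17.3% and 12.0% of all genes were. Their median there was -0.25. Podxl, the podocalyxin gene and closest relative of Cd34, read 10.13 and 10.12 in MN1 cells, 8.16 and 4.85 in MN1VP16 cells and 4.68 and 4.77 in Gr1Mac cells. It was at least 19.5-fold higher in MN1, a call lost without MN1 array 2 or either Gr1Mac array, and the MN1VP16 arrays had an SD of 2.34 log2 units. Spn, the leukosialin CD43, rose by 0.76 log2 units, and the largest falls were those of the tetraspanin Cd9 (6.86-fold), Adgre1, the F4/80 gene (4.63-fold), and Adgre5 (3.27-fold). In MN1VP16 against Gr1Mac limma called 0 of 18 (6 at an unadjusted p under 0.05). Selplg, the ligand of P-selectin, was the one called between MN1VP16 and MN1, 1.95-fold higher.

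Of 14 measured SLAM family genes and adaptors other than Slamf1 and Cd48, 5 fell and 1 rose in MN1 against Gr1Mac. Beside Cd244a and Cd84, those that fell were Slamf8, by 2.32 log2 units with both group means under the guide, Slamf9, at least 1.77-fold, and the phosphatase Ptpn6 (3.88-fold). The kinase Fyn, which SLAM adaptors recruit, was 3.496-fold higher. In MN1VP16 limma called 0 of 14 against Gr1Mac and 0 of 14 against MN1 (3 and 8 at an unadjusted p under 0.05).

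Around Procr, 15 genes of the protein C and thrombin pathway were measured, with 3 higher and 2 lower in MN1 against Gr1Mac. F2r, the thrombin receptor PAR1 through which activated protein C signals when bound to the protein C receptor, read 13.18 and 13.58 in MN1 cells, 11.58 and 9.37 in MN1VP16 cells and 4.68 and 4.28 in Gr1Mac cells. It was at least 186-fold higher in MN1 and at least 25.0-fold higher in MN1VP16 (lost without Gr1Mac array 2), while Procr itself stayed under the guide. The coagulation inhibitor Tfpi was 9.82-fold higher, F2rl3 at least 1.59-fold higher, and the coagulation factors F5 and F10 were 9.64-fold and 4.86-fold lower. Thbd, the thrombomodulin gene, was not called, at 1.70 log2 units (adjusted p = 0.0630).

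Around Eng, 27 genes of TGF-beta and BMP signalling were measured, of which 3 rose and 7 fell in MN1 against Gr1Mac, with a median of -0.32. The signal transducers Smad1 and Smad5 were 10.3-fold and 3.66-fold higher and Tgfbr3, the betaglycan gene and relative of Eng, 7.39-fold higher. The BMP target Id2 was 6.29-fold lower and the BMP receptor Bmpr1a 6.17-fold lower. In MN1VP16 against Gr1Mac, Tgfbr3 and Smad5 were 2.90-fold and 2.19-fold higher and Bmpr1a 4.70-fold lower. Between MN1VP16 and MN1, Id2 (5.69-fold) and Ski (1.91-fold), a repressor of SMADs, were higher and Tgfbr3 was 2.55-fold lower. These 6 calls of MN1VP16 were each lost without at least 4 of the 6 arrays in turn.

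Endothelial markers were examined because Cd34, Procr, Esam, Eng and Cd93 are shared with endothelium. Of 15 markers, 3 were called higher in MN1 against Gr1Mac , Plvap, Vwf and Egfl7, and 0 lower (1 at an unadjusted p under 0.05 in limma), and the list's mean was 4.75 to 5.21 on all arrays. Cdh5, the VE-cadherin gene that defines endothelium, read 4.03 to 4.67, Tek 3.49 to 4.28 and Tie1 3.69 to 4.96, all under the guide on all 6 arrays, and Kdr read 5.59 to 5.89. Plvap was also 6.16-fold lower in MN1VP16 than in MN1. Of 13 measured ESAM and junctional adhesion relatives, the scaffold gene Tjp1, at least 8.33-fold, and Cd99l2, 2.96-fold, were called higher in MN1. Tjp1 was also at least 8.33-fold lower in MN1VP16 than in MN1, and Jam2, Jam3 and F11r were not called.

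Transcription factors of stem cells gave a frame for these surface genes. Of 15 measured, limma called 8 higher and 0 lower in MN1 against Gr1Mac (median 1.76; 2 lower at an unadjusted p under 0.05), and 5 higher and 0 lower in MN1VP16 (median 0.98; 1 lower unadjusted). Between MN1VP16 and MN1, Gfi1b, Hlf and Tal1 were 10.2-fold, 9.10-fold and 8.496-fold lower, and 0 were higher (1 unadjusted). Hlf read 10.49 and 10.61 in MN1 cells, 7.25 and 7.47 in MN1VP16 cells and 6.53 and 6.25 in Gr1Mac cells. Of 10 megakaryocyte markers 3 were higher and 2 lower in MN1 against Gr1Mac and 1 was lower in MN1VP16, and of 16 lymphoid markers 3 were higher and 2 lower in MN1 and 3 higher and 1 lower in MN1VP16.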

How the data were processed

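Labelled RNA had been hybridised to 6 arrays, 2 in each of 3 groups. The authors deposited 1 log2 value per probe set and array, which the submitters' processing notes credit to RMA; its version, detection calls and a genome build are not given in the sources used here. The method compresses differences of dim genes and removes any change in total RNA. Of 45037 ordinary probe sets, 34945 name 1 gene, 932 several and 9160 none by the platform annotation; only the first kind was used. Gene numbers matched RefSeq (GRCm38.p6, names only) for 34741 and changed 0 symbols.

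limma 3.58.1 in R 4.3.3 (lmFit, eBayes) was fitted to the 6 arrays together, with no covariate beside the group (3 residual and 3.03 prior degrees of freedom), with no filter on dim genes, over 18193 genes and, separately, over all single-gene probe sets; p-values were adjusted by Benjamini-Hochberg within a comparison. Errors are limma's SE, and intervals cover 95%. The script was checked on simulated data. For arrays, their number limits the precision. The members and lists were chosen with earlier results of these data known; the lists share genes. Named from a list were up to 4 called genes with the largest difference per comparison, the called genes of a minority direction, and for each member the 2 nearest profiles; genes named with readings beyond that were chosen after their values were seen. Alternatives covered the choice of probe set, filters, arrays left out, blocks, the variance model, the normalization and the background guide.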

Additional observations from a re-analysis of the deposited data

How the results depend on the processing

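Of 462 recomputed differences of the 9 genes, 432 kept their side of the threshold, 27 lost a call and 3 gained one, and 0 called differences turned sign. Most of the 462 belong to differences not called in the main fit. Of the 27 losses, 9 were in MN1 against Gr1Mac, 2 in MN1VP16 against Gr1Mac and 16 in MN1VP16 against MN1. In that last comparison Adgrg1 lost its call in 9 of 17 settings and Cd93 in 7 of 18. Among the called genes of the other lists, Smad2 and Igll1 in MN1 against Gr1Mac turned sign in 1 setting each. In MN1 against Gr1Mac 5 genes were called; 3 were without _x_at, _s_at and _a_at probe sets, which leaves 5 of the 9 genes to test, and 2, Cd34 and Adgrg1, with the control feature split as a block. Leaving out 1 array gave 4 to 5 there and 1 to 4 in MN1VP16 against Gr1Mac, where 3 were called. In MN1VP16 against MN1 2 were called; the count was 1 with the mean of all probe sets of a gene, 1 without those probe set kinds, 1 with only the arrays of the compared groups, 1 with the replicate block, 0 with the sex pattern as a block, 0 with the control feature split as a block, and 0 to 1 with 1 array left out (limma, with 2 to 5 genes at an unadjusted p under 0.05 in each setting that gave 0). The cause of these changes was not tested. Some settings repeat a fit. The sex pattern block equals leaving out 1 Gr1Mac array in each comparison with Gr1Mac. The control feature block equals leaving out 1 MN1VP16 array in each comparison of MN1VP16. Leaving out an array outside a comparison equals using only the arrays of the compared groups. Filters on dim genes left 7 of the 9 to test, without Procr and Esam, and the other settings kept the counts within 1.5 times. The replicate numbers do not pair the arrays by the labels, and same-numbered arrays' deviations correlated at -0.05, -0.05 and 0.08 between the groups; with the replicate block the calls other than that of Adgrg1 between MN1VP16 and MN1 were the same. Depth cannot be given for arrays, and with no detection calls the levels of Procr and Esam have only a guide to background.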
